A study of Saccharomyces cerevisiae with 268 samples.

Results

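The ribosome biogenesis genes are 49 open reading frames of budding yeast, Saccharomyces cerevisiae, that encode nucleolar NOP, RRP, UTP and NOC proteins and related ribosome assembly factors. They were taken by their systematic names from the deposited table, and all 49 were among the 5615 genes with a value in at least 80% of columns, out of 5655 features with a gene name. By role, 6 belong to the core of the small nucleolar RNPs, 18 to small-subunit assembly, 22 to large-subunit assembly and 3 act in both pathways.

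Every sample of the series is labelled as the deletion of 1 gene for a transcription factor or another regulator, and each has 1 column of values. RAP1, REB1, ABF1, HSF1 and MCM1 are essential genes, but their labels read deletion like the rest, so what was done to these genes is not known here. Total RNA of the deletion strain in mid-log growth carried Cy5 and wild type RNA in mid-log growth carried Cy3, so a negative value means less RNA in the deletion strain. The study's stated purpose was a functional map of transcriptional regulation. No deletion had a replicate, and the sources used here state no strain background, no medium and no number of arrays behind a column. The values are treated as scores, since no source states their scale, log base or normalization, and no score is read as a fold change. Strains are named by the deleted gene.

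To test differences, strains lacking related regulators were grouped into 8 sets. These were the ribosome biogenesis repressors (TOD6, DOT6, STB3), the Rpd3L histone deacetylase complex (RPD3, SIN3, SDS3, PHO23, UME1), the chromatin remodeller SWI/SNF (SNF2, SNF5, SNF6, SWI3, SNF11) and the coactivator SAGA (ADA2, NGG1, SPT3, SPT20, HFI1). The others were the Mediator kinase module (SSN3, SSN2, SRB8), the Mediator tail (SIN4, GAL11, PGD1), the HIR histone chaperone (HIR1, HIR2, HIR3) and chromatin assembly factor CAF-1 (RLF2, CAC2, MSI1). The sets hold 30 strains, and all remaining deletion strains formed the comparison group, which every set shares. Since each strain within a set has its own genotype, a p-value measures the spread between strains, pooled over all columns.

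Ribosome assembly begins in the nucleolus, where RNA polymerase I transcribes a long ribosomal RNA precursor. Small nucleolar RNPs of the box C/D class guide methylation and those of the box H/ACA class guide pseudouridylation of this RNA, while the small-subunit processome, a large particle built around the U3 RNP, folds and cuts its first part. Other factors then assemble the large subunit and prepare it for export. In yeast these genes are known to be transcribed together during growth and shut down together in stress, with Sfp1 as an activator and Tod6, Dot6 and Stb3 as repressors.

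The deleted gene lay in the lowest 5% of its own values in 61.6% of the 263 strains where it had a value, and above 80% of them in 14. Among strains used below, it was high in the columns labelled SRB5, SPT20, RPD3, SSN3, NGG1, SPT3, ABF1 and MCM1. It was not low either, between the 20.5th and 72.2nd percentile of its values, in the columns labelled ASH1, PGD1, SIN4, ADA2, GAT3, SPT10, HIR1, HIR3, CBF1, DOT6 and PHO2, so a direction drawn from any of these columns rests on its label. In 29 columns, SPT3 among them, at least 2 of 4 genes stood below -2.5 that differ between laboratory strains or mating types (MET17, STE3 and both alpha-factor genes), and a chromosome's median was shifted by more than 0.5 in 15. In 6 columns (GCR1, RAP1, REB1, HSF1, ABF1, MCM1) the values were written with 6 significant digits, unlike the rest, and those columns lacked between 4 and 808 features. Column medians over all tested genes lay between -0.43 and 0.17.

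Most of the 49 genes rose and fell together across the deletion strains. The Pearson correlation of a gene with the median of the other members, over up to all strains, which share the wild type reference, had a median of 0.75 and exceeded 0.6 for 33 of the 49. Among all tested genes outside the list, the correlation with the members' median had a median of 0.058, and 270 of 5566 genes (4.85%) exceeded 0.6. The 5 members closest to the others were NOP4 (YPL043W, r = 0.90), ERB1 (0.89), NOP12 (0.89), DIP2 (0.87) and YTM1 (0.87). NOP4 and NOP12 encode RNA-binding proteins of early large-subunit precursors, ERB1 and YTM1 encode partners of Nop7 in a large-subunit complex, and DIP2 encodes a U3-associated protein of the small-subunit processome.

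The roles differed in how closely their genes followed the others. The median correlation was 0.79 for the large-subunit genes, 0.63 for the snoRNP core, 0.62 for the small-subunit genes and 0.54 for RRP5, RRP12 and HAS1, which act in both pathways. Taken as medians per strain, the small-subunit and large-subunit genes correlated at 0.88 (Spearman 0.89), and the snoRNP core correlated less closely with either, at 0.67 with the small-subunit and 0.71 with the large-subunit genes. These are descriptions over all strains, and the differences between roles were not tested. The members also spread more widely than other genes, with a median SD over strains of 0.93 against 0.72 for all tested genes. The widest spread was that of MAK16 (YAL025C), a large-subunit precursor protein, with an SD of 1.39 and scores from -4.85 to 3.64.

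**Figure D1:**
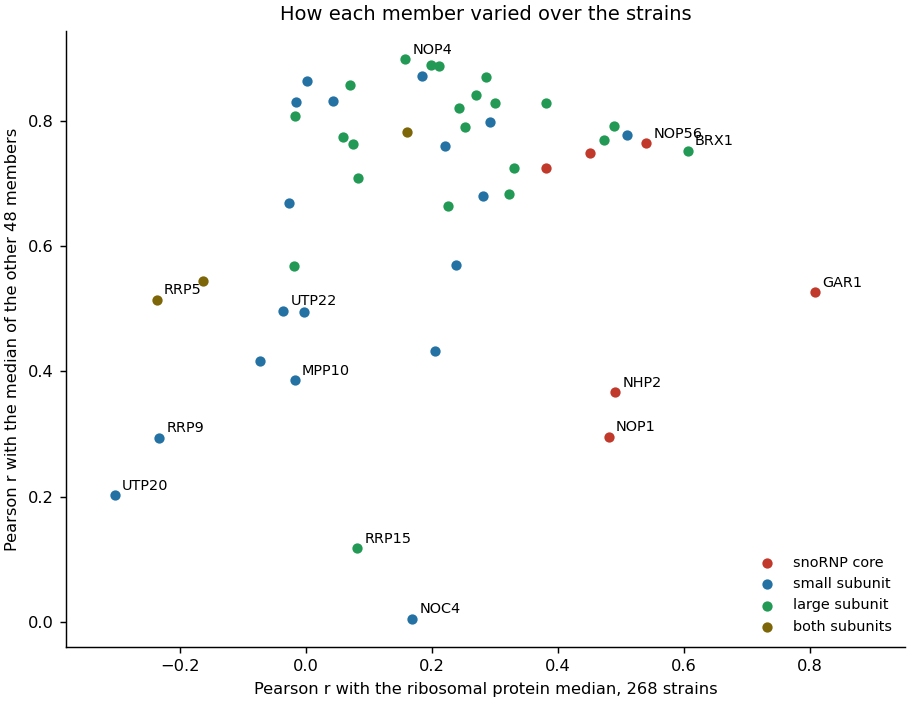
Pearson correlation, over the deletion strains, of each of the 49 members with the median of the cytosolic ribosomal protein genes (horizontal axis) and with the median of the other 48 members (vertical axis), 1 point per gene, coloured by role. The large-subunit genes cluster at the top around their median of 0.79, NOC4, RRP15, UTP20, RRP9 and NOP1 lie at 0.30 or below on the vertical axis, and GAR1 lies farthest right at 0.81.

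Correlations were lowest for 5 members. NOC4 (YPR144C), a small-subunit factor, had a correlation of 0.0053 with the other members, and RRP15 (YPR143W), a large-subunit factor with more missing values than any other member, had 0.12. Both genes lie beside each other on the right arm of chromosome XVI, and of the 50 genes most correlated with each, 24 for NOC4 and 18 for RRP15 lie on that arm, which holds 3.17% of the genes. The median over all members was 4 of 50. UTP20 (YBL004W), a large protein of the small-subunit processome, had a correlation of 0.20 with the other members but 0.84 with HAP1, which encodes a heme-responsive transcription factor (Spearman 0.77, 267 strains). UTP20 was below -2 in 9 strains, and HAP1 was below -2 in 8 of these. The median score of 23 long transposon reading frames correlated at 0.66 with UTP20 and at 0.74 with HAP1, and at 0.69 with NOP7, the highest among the members. RRP9 (YPR137W), the U3-specific protein, had 0.29 with the other members, and its best match among all genes, FAR11, reached 0.58. UTP22 lay in between, with 0.50 against the other members, and its closest genes were VAS1 at 0.86 and PUF4 at 0.83, which lie on the same chromosome.

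NOP1 (YDL014W), the methyltransferase of box C/D snoRNPs, correlated at 0.30 with the other members and most closely with RPL3, a ribosomal protein gene, at 0.73. GAR1 (YHR089C), a box H/ACA protein, had 0.53 with the other members and its closest gene was RPL13A at 0.85, followed by RPS1A at 0.84 and RPS6A at 0.84. Against the cytosolic ribosomal protein genes, taken as a median per strain, the members' correlations ran from -0.30 for UTP20 to 0.81 for GAR1. The snoRNP core as a whole correlated at 0.62 with the ribosomal protein genes (Spearman 0.45), the large-subunit genes at 0.30, the small-subunit genes at 0.12 and the 3 genes of both pathways at -0.10.

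Outside the list, the genes whose scores most resembled the members' median came partly from the list of other assembly factors. That list gave 8 of the 20 closest genes and makes up 0.88% of the tested genes outside the members, and no test was made of this share. The list is a chosen one and not complete, so a gene outside it may be an assembly factor too. The 20 began with RRB1 (r = 0.91), which encodes a chaperone for ribosomal protein L3, ENP2 (0.87), NSA1 (0.87), PUS7, a pseudouridine synthase (0.86), and DBP2, an RNA helicase (0.85). UTP9, MAK5, PWP1, LTV1, DRS1, HGH1, NOP13, SAS10, DBP3, MAK11, KRI1, TRM2, MTR4, ACL4 and FPR4 followed, down to 0.82. The median of 49 other assembly factors tracked the members at 0.96 over the strains, with an SD of 0.63 over strains against 0.66 for the members.

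Other parts of the machinery followed at a distance. The correlation was 0.79 for 11 exosome genes, which trim ribosomal RNA precursors, 0.77 for 9 RNA polymerase III genes and 0.75 for 7 RNA polymerase I genes. The cytosolic ribosomal protein genes correlated at 0.25 (Spearman 0.25, and 0.24 without the 2 strains farthest from the median), and their strain medians spread more, with an SD of 1.19. The 21 stress genes correlated at -0.43 (Spearman -0.50, and -0.43 without the 2 farthest strains). A list of 43 mitochondrial ribosomal protein genes correlated at 0.30, which fell to 0.13 once each column was centred on its median, while the stress genes then stood at -0.53. In all 7 relations were computed, all on columns that share the wild type reference, and none was tested.

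**Figure D2:**
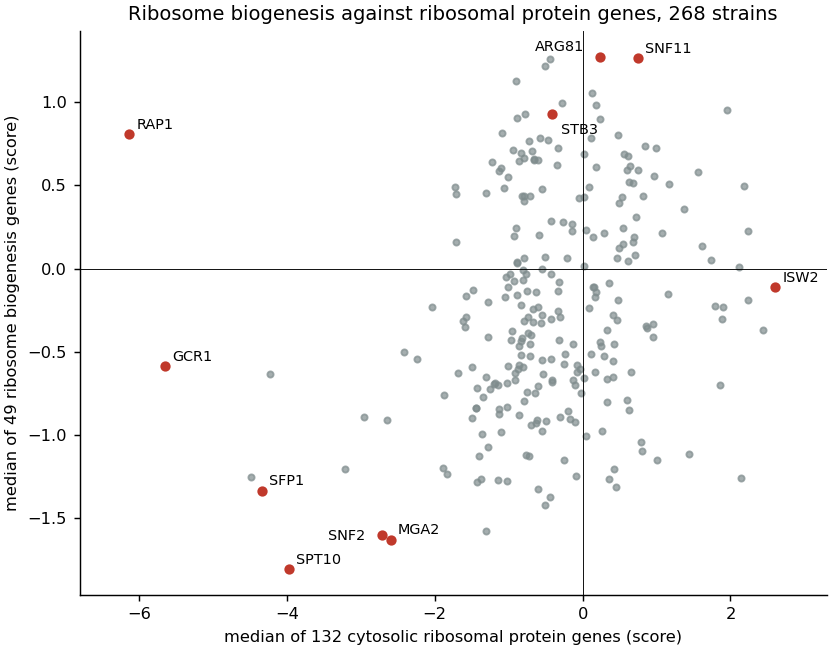
Median score of the cytosolic ribosomal protein genes (horizontal axis, score of deletion over wild type) against the median score of the 49 ribosome biogenesis genes (vertical axis, same unit), 1 point per deletion strain. The column of RAP1 lies far left at -6.13 with a members' median of 0.81, and SFP1 lies at -4.34 with -1.34.

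Across strains the median of the 49 genes ran from -1.81 to 1.27, with quartiles at -0.70 and 0.28 and a median of -0.29. It was below 0 in 64.2% of strains and above 0 in 96 of them, below -1 in 31 and above 1 in 6. The column medians over all tested genes had a median of -0.17, so 0 is not the middle of a typical column. The SD of the members' median over strains was 0.66, against 0.12 for the median of all tested genes. A gene was counted as low or high in a column when it lay more than 1 below or above its own median over all strains. At least 25 of the members were low in 12 strains and high in 21.

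The lowest column was that labelled SPT10, a regulator of histone genes, with a members' median of -1.81. It was followed by MGA2 (-1.63), a membrane-bound regulator of unsaturated fatty acid synthesis, SNF2 (-1.60), SNF5 (-1.58), FKH2 (-1.42), a forkhead factor of mitosis, the column labelled GAT3 (-1.38), SFP1 (-1.34), RIF1 (-1.33), a telomere protein, CUP2 (-1.31), a copper sensor, the column labelled CBF1 (-1.28), YLR278C (-1.28) and SWI3 (-1.27). In SPT10, 35 of the 49 members were low, where 25.2% of all genes were. In MGA2 35 members were low beside 14.7% of all genes, and its 21 stress genes had a median of 4.46. GAT3 and RIF1 were narrower columns, with 32 and 28 members low beside 6.69% and 5.48% of all genes. FKH2 had 27 low members beside 9.03%, CUP2 had 25 beside 6.91%, CBF1 had 24 beside 12.5% and YLR278C had 21 beside 12.1%. The SWI/SNF columns were broad ones, with 26 members low in SNF2 beside 26.5% of all genes, 25 in SNF5 beside 23.5% and 23 in SWI3 beside 24.5%. After quantile normalization of the columns the median of SPT10 was -0.94, that of SFP1 -0.94 and that of SNF2 -0.78, which placed them 32nd, 30th and 49th from the lowest. SNF5, the column labelled CBF1, YLR278C and SWI3 then stood 31st, 27th, 26th and 54th, and the column labelled GAT3 was the lowest, at -1.38.

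**Figure D3:**
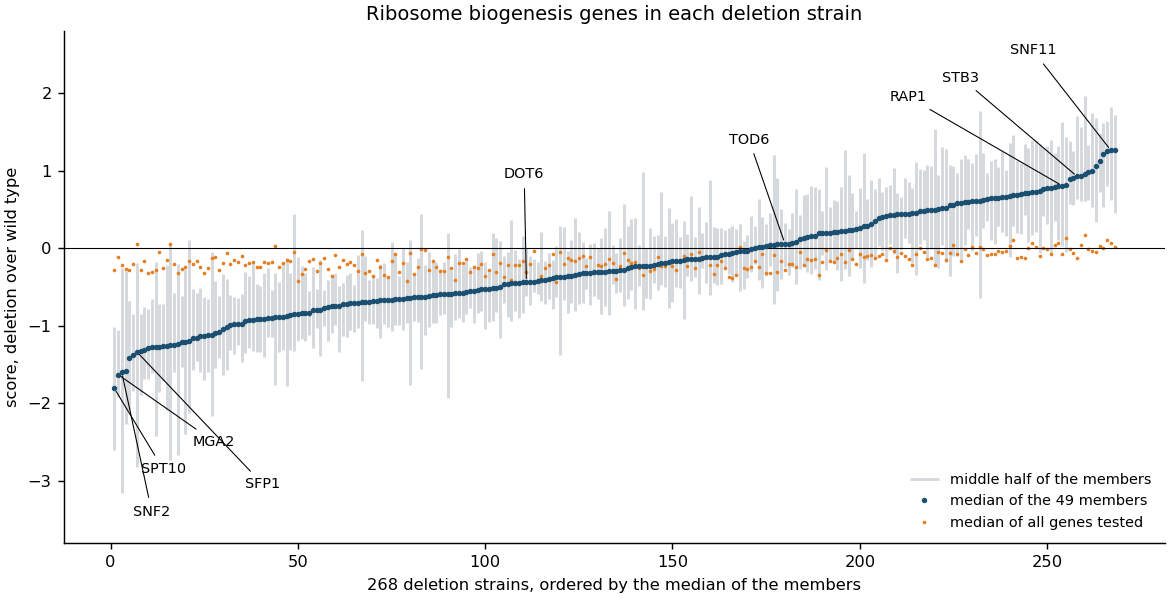
Median score of the 49 ribosome biogenesis genes in each deletion strain, ordered from lowest to highest (vertical axis, score of deletion over wild type, dark points), with a grey bar from the lower to the upper quartile of the members and an orange point for the median of all genes. The strains run from -1.81 in SPT10 to 1.27 in ARG81, while the medians of all genes stay close to 0.

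At the high end stood ARG81 (1.27), a regulator of arginine metabolism, SNF11 (1.26), the column labelled SRB5 (1.26), the column labelled ASH1 (1.22), a daughter-cell repressor, STB6 (1.13), ROX1 (1.06), the repressor of hypoxic genes, INO4 (0.997), a regulator of phospholipid synthesis, HST1 (0.98), SDS3 (0.95), RME1 (0.93), STB3 (0.93) and PDR8 (0.91). Between 31 and 41 members were high in each of these columns. In ASH1 35 members were high beside 12.3% of all genes, in STB6 33 beside 13.6%, in STB3 36 beside 13.2%, in RME1 33 beside 12.5% and in PDR8 32 beside 12.2%. The columns of SDS3, SNF11 and ARG81 were broader, with 35, 36 and 34 members high beside 24.3%, 21.3% and 20.3%, and the column labelled SRB5 had 41 beside 19.1%. HST1 had 32 beside 15.6%, INO4 32 beside 16% and ROX1 31 beside 18.7%. After quantile normalization the members' median was 0.49 in SDS3, 0.77 in ROX1 and 0.80 in HST1, which left the 12 highest, and the column labelled ASH1 was highest, at 1.15. All 49 members lay above their own medians in ASH1, STB6, STB3 and the column labelled SRB5. These columns had no replicate, so none of these positions was tested.

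**Figure D4:**
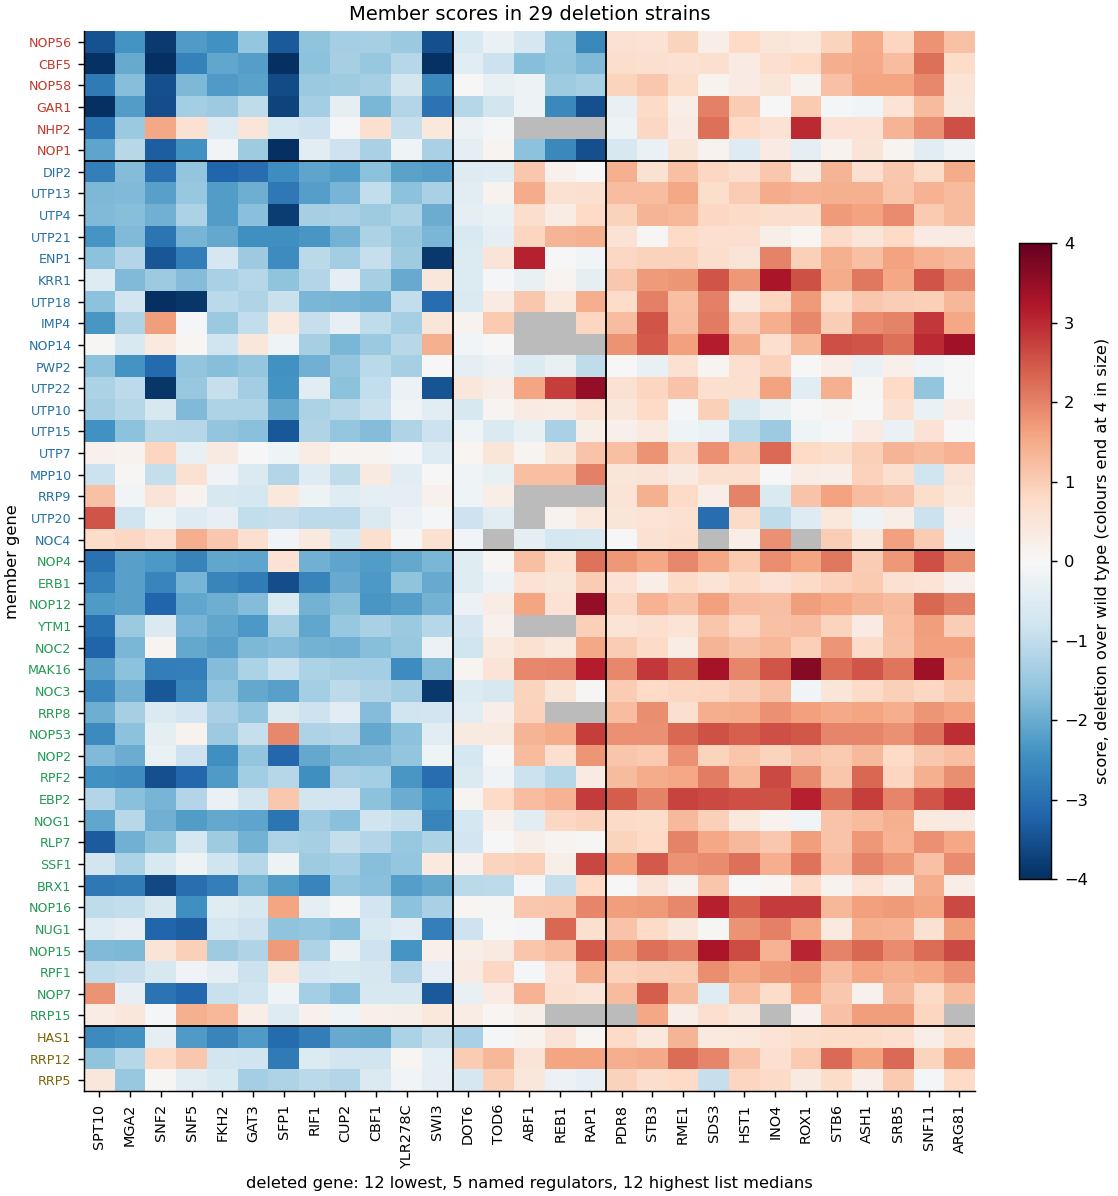
Scores of deletion over wild type of the 49 members (rows, grouped by role) in the 12 strains with the lowest members' median (left), 5 named regulators (middle) and the 12 strains with the highest (right). Blue is low, red is high, grey is a missing value, and the colours end at a size of 4. The snoRNP core rows are deep blue in SPT10, SNF2 and SFP1, where their medians were -3.20, -3.53 and -3.65.

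SFP1 encodes the nutrient-responsive activator of ribosome synthesis, and its own score was the lowest of all strains. The snoRNP core was the lowest role in this column, with a median of -3.65 and 5 of 6 genes low, followed by the 3 genes of both pathways at -2.83. CBF5, the pseudouridine synthase of box H/ACA snoRNPs, stood at -4.05, NOP1 at -3.98, GAR1 at -3.70, NOP58 at -3.59 and NOP56 at -3.36, while NHP2 stood at -0.69. The small-subunit genes had a median of -1.83 with 11 of 18 low, led by UTP4 at -3.78 and UTP15 at -3.41, both subunits of the processome's UTP-A complex.

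The large-subunit genes were split in SFP1. Their median was -0.75, with 10 of 22 low and 3 high, and ERB1 at -3.53 and NOP2, an RNA methyltransferase, at -3.15 were the lowest. The high genes were NOP53 at 1.93, NOP15 at 1.71 and NOP16 at 1.57. In all, 28 members were low beside 18.4% of all genes, and 3 were high beside 29.3%. RNA polymerase I genes had a median of -3.06, the lowest of all strains, and ribosomal protein genes -4.34.

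The 3 repressor strains differed in their members' median. TOD6 and DOT6 encode related Myb-like proteins that bind the PAC element, and STB3 binds the RRPE element, both common in promoters of these genes. The members' median was 0.061 in TOD6, -0.44 in the column labelled DOT6 and 0.93 in STB3, where the deleted gene lay at the 1.88th, 60.7th and lowest percentile of its values. MAK16 stood at 0.51 in TOD6, 0.11 in DOT6 and 2.84 in STB3, and IMP4, a U3-associated protein, at 1.05, 0.13 and 2.51. Only STB3 was far above the middle of the strains, and 1 member was high in TOD6 and 0 in DOT6, beside 3.19% and 3.3% of all genes. By role the large-subunit genes had the highest scores in STB3, at 1.44, against 0.89 for the small-subunit genes and 0.70 for the snoRNP core. Part of such a gap can lie in the genes' own medians over all strains, which ran from -0.83 for BRX1 to 0.57 for RRP12. Set against its own median, a gene was high for 19 of 22 large-subunit, 12 of 18 small-subunit and 4 of 6 core genes.

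As a set, the repressor strains gave no call. The limma fit called 0 of 49 members (0.0178% of all genes were called higher and 0.0% lower), with 2 members higher and 0 lower at an unadjusted p under 0.05. The difference from the comparison group was positive for 48 of 49 members, with a median of 0.45 against -0.06 over all genes, but without STB3 that median was 0.038 against -0.13. The largest was that of NOP7, a pre-rRNA processing protein of the large subunit, at 1.14 ± 0.55 (SE), from 0.81 ± 1.42 (SD, n = 3) against -0.33 ± 0.93 (SD) in the comparison strains. Its adjusted p in limma was 1, and of the 3 strains STB3 was highest, at 2.41.

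RAP1, REB1 and ABF1 encode general regulatory factors, of which Rap1 is the main binder of ribosomal protein promoters, and GCR1 encodes its partner at glycolytic genes. In the column of RAP1 the ribosomal protein genes had a median of -6.13, the lowest of all strains, while the members' median was 0.81 over 44 genes with a value. That members' median was 0.40 after quantile normalization. The snoRNP core went with the ribosomal proteins, with NOP1 at -3.52, GAR1 at -3.50, NOP56 at -2.58, CBF5 at -1.75 and NOP58 at -1.34. The large-subunit genes had a median of 1.504 and 16 of 20 were high, among them NOP12 at 3.51 and MAK16 at 3.15, and the small-subunit gene UTP22 stood at 3.51. In all 5 members were low and 24 high in RAP1, beside 22.1% and 24.3% of all genes.

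In scores not set against each gene's own median, the snoRNP core was lower than the large-subunit genes in all 6 columns written with 6 digits. This was not particular to them, since it was lower in STB3 (0.70 against 1.44) and ARG81 (0.64 against 1.65), though not in SNF11 (1.81 against 1.56). In REB1 the core had a median of -1.59 and the large-subunit genes 0.63, with 7 members low and 14 high beside 20.5% and 14.5% of all genes. The column labelled ABF1 had -0.67 for the core and 0.92 for the large-subunit genes, with 2 members low and 17 high beside 19.4% and 14.7%. In HSF1 the core stood at -3.32 and the large-subunit genes at -0.45, in GCR1 at -3.91 and -0.43, with NOP1 at -4.55, and in the column labelled MCM1 at -0.64 and 1.68. In both ABF1 and MCM1, 3 of the 5 core genes with a value lay below their own medians and 2 above. The columns of SFP1 and SNF2 had the core as the lowest role, SNF2 at -3.53 against -1.74 for the large-subunit genes. The part of the shared number format in the values of the 6 columns was not tested.

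The set with the most called members was SWI/SNF. SWI/SNF is an ATP-dependent remodeller that moves nucleosomes at promoters, with Snf2 as its motor. The members' median was -1.60 in SNF2, -1.58 in SNF5, -1.27 in SWI3 and -1.24 in SNF6 but 1.26 in SNF11. In limma 21 of 49 members were lower than in the comparison strains (42.9%, where 21.3% of all genes were lower) and 1 was higher (2.04%, beside 11.3%). The median difference was -0.49 for the members and -0.07 for all genes. For the members it was -1.08 without SNF11, -0.30 without SNF2 and -0.21 after quantile normalization.

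The decrease took in 5 of the 6 snoRNP core genes, 11 of 22 large-subunit genes, 5 of 18 small-subunit genes and 0 of the 3 genes of both pathways. CBF5 (YLR175W) stood at -4.55 in SNF2, -2.71 in SNF5, -3.79 in SNF6, -3.95 in SWI3 and 2.19 in SNF11. These values hold both the lowest and the highest score of CBF5 among all strains. Its mean was -2.56 ± 2.74 (SD, n = 5) against -0.41 ± 0.98 (SD) in the comparison strains, a difference of -2.15 ± 0.47 (SE, limma adjusted p = 7.73e-05). That SE comes from the pooled spread, and the SD within the set was wider than that of the comparison strains. NOP56 fell by 1.74, NOP1 by 1.52, GAR1 by 1.47 and NOP58 by 1.46, with limma adjusted p-values from 0.000414 to 0.0104, while NHP2 was not called, with a difference of 0.91.

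Among small-subunit genes, UTP22 (YGR090W), a processome protein, had the largest difference of all members. It stood at -3.88 in SNF2, -1.51 in SNF5, -4.80 in SNF6, -3.44 in SWI3 and -1.57 in SNF11. All 5 values lay below the comparison mean of -0.15 ± 0.97 (SD), and the difference was -2.89 ± 0.45 (SE, limma adjusted p = 2.14e-08). UTP18 (YJL069C), of the processome's UTP-B complex, stood at -4.36, -3.89, -4.12 and -3.05 in SNF2, SNF5, SNF6 and SWI3 and at 0.94 in SNF11. Its difference was -2.53 ± 0.40 (SE, limma adjusted p = 4.55e-08). The 1 member called higher was NOP14 (YDL148C), also of the processome, at 1.27 ± 1.14 (SD, n = 5) against 0.10 ± 1.05 (SD), with a difference of 1.17 ± 0.48 (SE, limma adjusted p = 0.0462). That call was lost without SNF11, where the difference was 0.74 (limma adjusted p = 0.276), and the adjusted p was 0.101 without SWI3 and 0.118 without SNF6.

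Of the large-subunit genes, RPF2 (YKR081C), which loads a ribosomal RNP onto the large-subunit precursor, stood at -3.51 in SNF2, -3.13 in SNF5, -2.70 in SNF6, -3.06 in SWI3 and 1.42 in SNF11. The difference was -2.14 ± 0.48 (SE, limma adjusted p = 0.000125). NOP7 (YGR103W) stood at -2.95, -3.13, -3.28 and -3.35 in SNF2, SNF5, SNF6 and SWI3 and 0.78 in SNF11, and its difference was -2.06 ± 0.43 (SE, limma adjusted p = 3.71e-05). NUG1, MAK16, NOC3, EBP2, NOP12, NOP16, NOG1, BRX1 and ERB1 were the other large-subunit genes called lower, with differences from -1.97 to -1.05. In SWI3, 2 members on its raised chromosome III (by 1.15) stayed near or above their own medians, PWP2 at -0.024 and KRR1 at 0.46.

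SNF11 went the other way from the other 4 strains, although its deleted gene lay at the 4.94th percentile of its values. For 39 of 49 members the other 4 strains all lay below SNF11, and for 46 members SNF11 lay above the comparison mean. For 30 members the other 4 strains all lay below that mean. Leaving out SNF11 gave 23 members lower, and leaving out SNF2, SNF6, SWI3 or SNF5 gave 12, 12, 14 and 15. In this order the members' median difference was -1.08, -0.30, -0.42, -0.70 and -0.45, against -0.12, -0.07, -0.06, -0.06 and -0.07 for all genes. The shares of all genes called in these fits are not given here. After quantile normalization 1 member was lower (UTP22), where 4.26% of all genes were, and when strains with a raised or lowered chromosome were left out, which removed SWI3 and SNF6, 5 were lower, beside 9.62% of all genes.

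**Figure D5:**
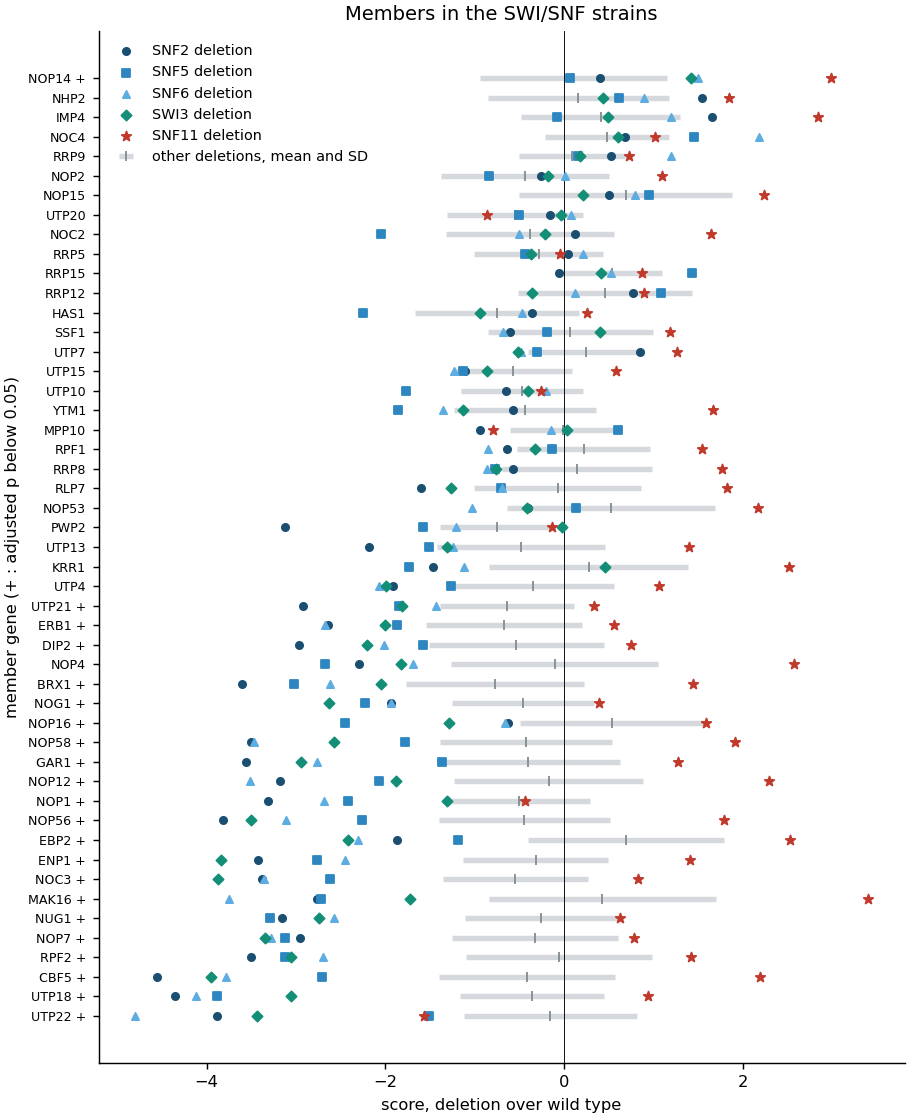
Scores of the 49 members in the SWI/SNF strains (1 row per gene, a plus sign for an adjusted p below 0.05, horizontal axis in score units of deletion over wild type), with 1 coloured point for each of the 5 strains and a grey mark with a bar for the mean ± SD of the comparison strains. The SNF11 points lie to the right of the other 4 strains for 39 genes, as for CBF5 at 2.19 against -4.55 to -2.71.

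Counts of other genes of ribosome synthesis in the SWI/SNF strains are to be read against the 21.3% of all genes that were lower. Of the 49 other assembly factors 21 were lower and 0 higher (42.9% lower), of 11 exosome genes 5 were lower (45.5%) and 1 higher, of the ribosomal protein genes 35 were lower (26.5%) and 0 higher, of 9 RNA polymerase III genes 2 were lower (22.2%) and 1 higher, and of 7 RNA polymerase I genes 1 was lower (14.3%). The shares of the polymerase and ribosomal protein genes were thus below or near that of all genes. ROK1, a helicase of the small subunit, differed by -2.59 (limma adjusted p = 8.80e-07) and NSR1, a nucleolar RNA-binding protein, by -2.58 (limma adjusted p = 9.97e-06).

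In the SAGA strains 1 member was called, and the call rested on single columns. MAK16 stood at -1.83 in HFI1 and at 0.27, 1.58, -2.13 and -4.85 in the columns labelled ADA2, NGG1, SPT3 and SPT20. The last is a column whose chromosome I, which carries MAK16, stood at -0.97. The difference from the comparison group was -1.82 ± 0.60 (SE, limma adjusted p = 0.0329), where 6.68% of all genes were lower and 3.31% higher. It was -0.95 (adjusted p = 0.593) without SPT20, and the adjusted p was 0.125 without SPT3 and 0.167 without HFI1. The members' median was -0.37 in ADA2, 0.64 in NGG1, -0.45 in SPT3, -1.21 in the column labelled SPT20 and -0.89 in HFI1. Leaving out NGG1 gave 9 members lower and leaving out ADA2 gave 5 lower and 1 higher, so the count in this set varied from 0 to 9. The shares of all genes called without NGG1 and without ADA2 are not given here. These counts therefore do not by themselves tell the members from all genes. The members' median difference in these 2 fits was -0.44 and -0.24, against -0.08 and -0.05 for all genes.

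SWI/SNF and SAGA were also compared with each other. UTP22 differed by -2.13 ± 0.63 (SE), with -3.04 ± 1.45 (SD, n = 5) in SWI/SNF and -0.91 ± 1.38 (SD, n = 5) in SAGA (limma adjusted p = 0.0347), and was the 1 member called (2.19% of all genes were lower and 0.677% higher). The call was lost without SWI3, SNF2, SNF6, ADA2, NGG1 or HFI1, each left out in turn. Without SNF11, 12 members were lower in SWI/SNF than in SAGA, with a median difference of -0.97 for the members and -0.11 for all genes. The share of all genes called in that fit is not given here, so this count does not by itself tell the members from all genes.

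The Mediator tail strains had 1 call, and it came from 1 column. UTP22 stood at -4.79 in the column labelled SIN4, where the deleted gene lay at the 24.3rd percentile of its values, -0.22 in GAL11 and -0.53 in the column labelled PGD1, a difference of -1.69 ± 0.58 (SE, limma adjusted p = 0.0478), where 4.2% of all genes were lower and 3.58% higher. Without SIN4 the difference was -0.22 (adjusted p = 0.950). The members' medians were -0.63, -0.23 and -0.85 in these strains, while ribosomal protein genes were higher for 7 (5.3%) and lower for 0.

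UTP20 was the 1 member called in the CAF-1 strains. It stood at 1.36 in RLF2, 0.93 in CAC2 and 0.43 in MSI1 against a mean of -0.55 ± 0.76 (SD), a difference of 1.45 ± 0.45 (SE, limma adjusted p = 0.0495), where 2.48% of all genes were higher and 0.232% lower. All 3 strains lay above the comparison mean, but leaving out any of them ended the call (adjusted p from 0.0911 to 0.550). UTP20 was also at its highest, 2.51, in SPT10, where 43 of the 49 members lay below their own medians.

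The other sets gave no call among the members. In the HIR strains limma called 0 of 49 (0.0% of all genes in either direction), with 0 higher and 1 lower at an unadjusted p under 0.05. The differences were negative for 44 of 49, with a median of -0.36 against -0.21 for all genes, but without the column labelled HIR1 the medians were -0.19 and -0.20, and with columns centred on their medians they were -0.18 and -0.03. The members' medians were -0.84, -0.53 and -0.11 in the columns labelled HIR1, HIR2 and HIR3. The Rpd3L strains ranged from -0.92 in PHO23 to 0.95 in SDS3, with -0.91 in SIN3, -0.65 in UME1 and 0.12 in the column labelled RPD3, and limma called 0 members (0.232% of all genes higher, 0.178% lower), and 0 at an unadjusted p under 0.05. The median difference of the Rpd3L strains was -0.07 and turned to 0.12 without columns with a shifted chromosome. The Mediator kinase strains stood at 0.70 in the column labelled SSN3, -1.12 in SRB8 and -0.74 in SSN2. Limma called 0 members there (0.0178% higher, 0.0% lower), with 0 higher and 1 lower at an unadjusted p under 0.05, and 0 between the kinase and tail strains (0.196% higher, 0.125% lower), with 0 higher and 2 lower unadjusted.

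In several columns members moved with the chromosome they lie on. In SRB8, whose chromosome XI stood 1.28 above 0, EBP2 stood at 1.30 and RPF2 at 1.27 beside a members' median of -1.12. MAL33 had the same chromosome raised by 2.13, and EBP2 reached 4.14 and RPF2 2.93, the highest score of either gene among all strains. SIN3 had chromosome V raised by 1.05, with NOP16 at 2.07 beside a members' median of -0.91. In SWI6 chromosome V stood at 0.77 and NOP16 at 3.34, beside a members' median of 0.81. In the column labelled ABF1 chromosome II stood at 1.15 and ENP1 at 3.09, beside a members' median of 0.59. Not every member followed, since UTP21 stood at -0.88 in the column labelled PHO2, where chromosome XII was raised by 0.67. MAK16 stood at 1.52 in the column labelled GLN3, where its chromosome I stood at -0.52 and the members' median was 0.16.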

How the data were processed

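Each array had 2 channels, Cy5 for the deletion strain and Cy3 for wild type, per the labels. The deposited table held scores made by the authors, 1 column per deletion, with scale, log base, centring and normalization not given in the sources used here, so they are used as scores and the direction follows the dyes. It had 6419 features, 0 columns belonged to no sample, and 1.25% of values were missing. The systematic names of 5655 features were matched to RefSeq gene names (assembly R64), a table that served for names and neighbours alone. Probes, spot intensities and background are not analysed here, and the number of arrays limits the precision.

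Genes with a value in at least 80% of columns were tested with limma 3.58.1 (R 4.3.3): lmFit with 1 mean per strain set, eBayes, and Benjamini-Hochberg adjustment over all 5615 genes, two-sided, threshold 0.05. The planned tests had assumed log ratios, and limma was kept because the scores are signed and centred near 0. In simulated data the SWI/SNF comparison recovered 93% of genes shifted by 2 and 44% of those shifted by 1, and the HIR comparison 81% and 22%. The simulation drew genes independently, with the same SD in all columns and the same shift in every strain of a set. It therefore does not cover correlated genes or a set whose strains differ, such as SWI/SNF with SNF11. Medians and correlations were computed in Python 3.11.15 with pandas 2.3.3 and numpy 2.4.6. The members, lists and sets were chosen with earlier results of these data known. The text names, per set, up to 5 called members in each direction, the 12 lowest and 12 highest strains, known regulators, the 20 genes most like the members, and the 5 members most and least like the others; further genes were chosen after their values were seen. Alternatives changed the normalization, the genes and the columns used.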

Additional observations from a re-analysis of the deposited data

Results flagged for a closer look

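In the SWI/SNF strains 1 column stood far from the other 4. The median of the 49 ribosome biogenesis genes was 1.26 in SNF11 and between -1.60 and -1.24 in the others, a gap of 0.87 of the whole range. The same strain stood apart for UTP18 at 0.94, where the others lay between -4.36 and -3.05, for CBF5 at 2.19 against -4.55 to -2.71, for RPF2 at 1.42 against -3.51 to -2.70, and for NOP7 at 0.78 against -3.35 to -2.95. Chance alone marks about 5% of groups this way, 10 groups were looked at, and the genes share their columns, so these are not separate observations. The reason was not tested.

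The effect of the SWI/SNF and SAGA deletions on UTP22 differed in a direct contrast, with a difference of -2.13 (limma adjusted p = 0.0347). This call was lost in 6 of 10 fits that left out 1 strain, after quantile normalization, without columns with a shifted chromosome, and without columns whose own deleted gene was high.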

How the results depend on the processing

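No paired analysis was possible because each deletion had 1 column and the numbers within a set are only names. Of the 437 recomputed values, 348 kept their direction and their side of the threshold or stayed close to the main value or count. Many of these are counts of 0 that stayed at 0, so this share is no measure of how stable the calls were. Differences were recomputed for up to 5 called members per direction in each comparison, and none of these changed sign. Some member medians that passed no test did: without columns with a shifted chromosome the Mediator kinase median went from -0.24 to 0.091 and Rpd3L from -0.07 to 0.12, and kinase against tail went from 0.053 to -0.43 without columns whose own gene was high. A strain's members' median near 0 could turn too, as in CAC2, from -0.13 to 0.11 with each gene centred on its median. After quantile normalization the members called lower were 1 in SWI/SNF and 0 in SAGA, the Mediator tail and SWI/SNF against SAGA, and 0 were higher in SWI/SNF. With columns centred on their medians, 0 were higher in CAF-1 and 2 lower in the Mediator tail, and the relation to mitochondrial ribosomal proteins was 0.13 and to stress genes -0.53. With the 39 members that had a value in every column, 0 were higher in CAF-1, 2 lower in the Mediator tail and 0 higher in SWI/SNF. The tail also had 2 lower without the columns written with 6 digits, and 2 when fitted with the comparison strains alone. Without columns with low mating type markers, 0 were lower in SAGA and 2 higher in SWI/SNF. Without columns with a shifted chromosome, 5 were lower and 0 higher in SWI/SNF, 0 lower in SAGA, 2 lower in the tail and 0 lower in SWI/SNF against SAGA. Without columns whose own deleted gene was high, chosen after seeing the data, 0 were lower in SAGA and 0 in SWI/SNF against SAGA. Leaving out 1 strain at a time gave 12 to 23 lower and 0 to 2 higher in SWI/SNF, 0 to 9 lower and 0 to 1 higher in SAGA, 0 to 2 lower in the tail, 0 to 0 higher in CAF-1 and 0 to 12 lower in SWI/SNF against SAGA. The shares of all genes called are not set beside these counts, so a changed count does not by itself tell the members from all genes. The causes were not tested. The planned search for promoter motifs was not run, since no sequences were used here. Single columns without replicates limit all values, and spot signal over background is not analysed here.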

Other observations

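At the other end from the assembly factors, the genes that moved most against the members' median over the deletion strains were of other kinds. The lowest Pearson correlations among all tested genes were those of VVS1 (-0.64, 262 strains), ATG33 (-0.63, all strains), a mitophagy gene, and SDH4 (-0.61, all strains), a succinate dehydrogenase subunit. AIM19, NNR1, BXI1, AGX1, OM14, SDP1 and GLK1, which encodes glucokinase, followed, down to -0.56. Neighbouring genes in the genome had a median correlation of 0.11 over 5243 pairs, and the 94 pairs of a member and another gene had 0.13.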
